A study of Mus musculus with 12 samples.

Results

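Cytosolic ribosomal protein genes were examined in the hippocampus of mice with and without *Dek*, a gene for a chromatin-binding protein. They were taken as the listed genes that GENCODE M21 classes as protein-coding and whose symbols begin with Rpl or Rps and a number, together with the P proteins and *Rpsa*. The kinase genes whose symbols begin with Rps6k were left out. Of 26409 listed genes, 82 were members, and 84 annotated genes fit the same symbols, *Rpl24* and *Rpl41* being the ones not analysed here. The members encode 50 proteins of the large subunit and 32 of the small subunit.

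Each ribosome carries about one copy of most of these proteins, so their mRNAs are needed in similar amounts and are among the most abundant of any cell. The small subunit reads the mRNA and the large subunit joins the amino acids. Most of the mRNAs begin with a run of pyrimidines, the TOP motif, through which mTOR and LARP1 control their translation, and neurons also carry ribosomes into dendrites and axons, where local translation takes part in synaptic plasticity.

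Hippocampi were dissected from adult mice of a C57Bl/6 background after behavioural tests, at an age of at most a year by the study's methods, and RNA of 12 mice was sequenced, with 3 libraries in each of 4 groups. They came from WT and *Dek* cKO mice of each sex, the latter labelled DEK KO. The knockout line carries a germline deletion of *Dek* exons flanked by loxP sites, made with CMV-Cre in all tissues, after which the Cre transgene was bred out and the line was kept by mating heterozygotes. Library names start with C57 in the female WT group and with CMV in all other groups, so a difference of line or batch behind this prefix cannot be told apart from the female WT group.

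Values are TPM, a level per transcript length scaled within a library. TPM keep no read depth, so the reads behind a value are unknown. *Dek* itself had 49.5, 44.2 and 47.0 TPM in the female WT and 51.9, 48.7 and 48.8 TPM in the male WT libraries, against 6.52, 9.25 and 6.52 TPM in the female and 7.47, 8.10 and 5.55 TPM in the male *Dek* cKO libraries. The genotype labels therefore match *Dek* in each library. It fell in *Dek* cKO mice of both sexes together (log2 fold change -2.74, SE 0.10, adjusted p = 1.17e-08, limma with Benjamini-Hochberg adjustment).

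A pair of libraries goes against its sex label. The summed level of the Y-linked genes *Eif2s3y*, *Ddx3y*, *Kdm5d* and *Uty* was 108 TPM in the library labelled female cKO replicate 3 and 0.642 TPM in the library labelled male cKO replicate 1. It was between 0.613 and 1.77 TPM in the other female-labelled and between 96.3 and 125 TPM in the other male-labelled libraries. Groups follow the labels below, and the members' counts and medians by sex are given with and without this pair.

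The tissue label was checked with markers. Neuronal markers (*Rbfox3*, *Snap25*, *Syt1*, *Tubb3*) summed to between 2634 and 2942 TPM, and the markers of granule cells and CA3 were present in every library, at summed levels of at least 78.0 and 296 TPM. None of these markers was listed at 0 in all libraries.

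The ribosomal protein genes held about 4% of the listed TPM. Their summed level was 34069, 32195 and 31479.9 TPM in the female WT libraries, 32047, 31287 and 34739 TPM in the female *Dek* cKO, 35282, 32898 and 33363 TPM in the male WT and 31865, 36651 and 37327 TPM in the male *Dek* cKO libraries. As a share of all listed TPM this was 3.91 ± 0.177%, 3.92 ± 0.178%, 4.06 ± 0.139% and 4.25 ± 0.366% (mean ± SD, n = 3 in each). The groups overlapped, and the differences between their means were smaller than the spread within the male *Dek* cKO group. That group held both the highest values, in replicates 2 and 3, and, in the library labelled male cKO replicate 1, the tenth of the 12 values from the top. Without the pair against their sex label the male *Dek* cKO libraries held 4.42 and 4.50%, above all other libraries, and the female ones 3.88 and 3.76%. Bulk tissue cannot tell a change in RNA per cell from a change in the number of cells of a type.

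**Figure D1:**
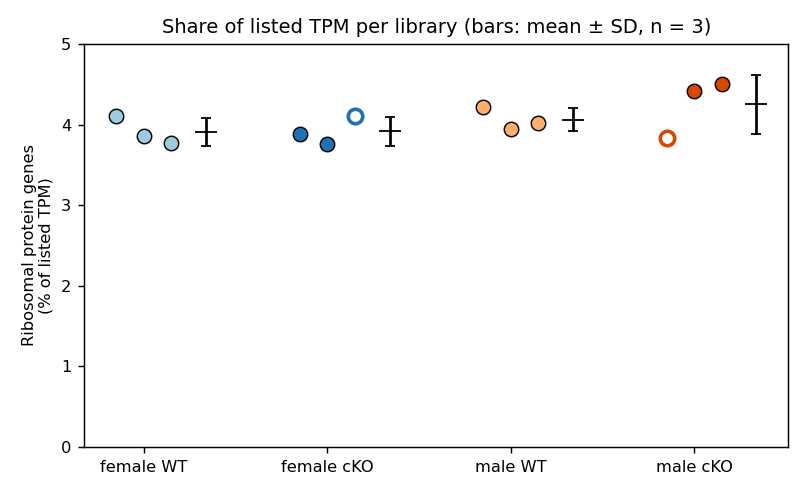
Share of the listed TPM held by the 82 ribosomal protein genes in each library (percent, axis from 0), by group, with mean and SD of 3 libraries. Open circles are the libraries labelled female cKO replicate 3 and male cKO replicate 1, and the male *Dek* cKO group spans 3.83 to 4.50%.

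Large and small subunit mRNAs kept a nearly fixed ratio. The large subunit genes summed to between 16929 and 20280.7 TPM and the small subunit genes to between 14358 and 17046 TPM. The ratio of the sums was 1.19, 1.17 and 1.16 in female WT and 1.16, 1.18 and 1.23 in female *Dek* cKO libraries, and 1.14, 1.18 and 1.17 in male WT and 1.17, 1.16 and 1.19 in male *Dek* cKO libraries. Its mean over all libraries was 1.18 with an SD of 0.0208, with values from 1.14 to 1.23. The groups overlapped, and the highest ratio belonged to the library labelled female cKO replicate 3.

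Members varied together from library to library. Among the 79 members with a mean of at least 10 TPM, the median difference from a member's own mean over the 12 libraries (log2 scale) was 0.00, -0.06 and -0.09 in female WT and -0.06, -0.09 and 0.02 in female *Dek* cKO libraries, and 0.07, -0.03 and -0.00 in male WT and -0.06, 0.12 and 0.17 in male *Dek* cKO libraries. In male *Dek* cKO replicates 2 and 3, 76 and 77 of the 79 members lay above their own mean, against 13 in the library labelled male cKO replicate 1 and 5 in female WT replicate 3. In both high libraries the medians of the large subunit (0.12 and 0.17) and of the small subunit (0.14 and 0.16) were alike. Pairs of members had a median Pearson correlation of 0.536 over the 12 libraries, and 91.1% of the 3081 pairs were above 0. That median was 0.442 without male cKO replicate 3 and 0.668 without the library labelled female cKO replicate 3. These correlations rest on the same libraries and on values scaled to a common total, and serve as a description.

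The library labelled female cKO replicate 3 stood apart in another way. Its median difference was only 0.02, but the SD of the members' differences in it was 0.226, against 0.0632 to 0.115 in the other libraries. *Rps12* was at 5.77 TPM there and at 9.75 to 20.3 TPM in WT libraries, while *Rpl15* was at 374 TPM against 253 to 301 TPM. Among 1258 other genes averaging 100 TPM or more the same SD was 0.299 in this library, 0.257 in male cKO replicate 3 and 0.110 to 0.185 elsewhere, so other abundant genes spread widely there too.

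**Figure D2:**
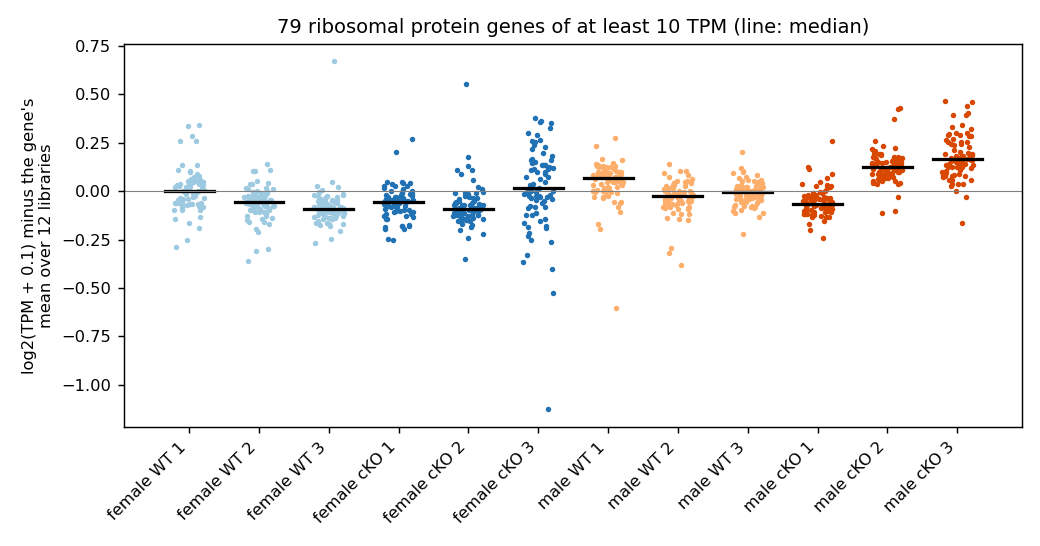
Each point is 1 of the 79 ribosomal protein genes averaging 10 TPM or more, plotted in each of the 12 libraries as the difference of its log2 level from its own mean, and the line is the median of the library. The medians are highest in male cKO replicates 2 and 3 (0.12 and 0.17), and the points spread most in the library labelled female cKO replicate 3 (SD 0.226).

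The summed level of astrocyte markers was highest in male cKO replicate 3, where *Gfap* was high. The 4 astrocyte markers (*Aqp4*, *Gfap*, *Slc1a2*, *Aldh1l1*) summed to 865, 859 and 915 TPM in female WT and 858, 753 and 1036 TPM in female *Dek* cKO libraries, and 919, 859 and 814 TPM in male WT and 827, 774 and 1907 TPM in male *Dek* cKO libraries. *Gfap* was at 1267 TPM in male cKO replicate 3 and at no more than 437 TPM in any other library, while *Slc1a2*, on average the most abundant of the 4, was at 513 TPM there and at 452 to 562 TPM elsewhere. In males the log2 fold changes of the 4 markers ran from -0.19 to 0.88, with 3 above 0. By limma 1 of them was lower in male *Dek* cKO at an unadjusted p under 0.05, against 5.45% of all genes. Sums of the neuronal markers did not overlap between the groups of either sex. The 4 neuronal markers, led by *Snap25*, summed to 2846, 2932 and 2836 TPM in male WT and 2634, 2635 and 2695 TPM in male *Dek* cKO libraries, lower without overlap, but to 2639, 2718 and 2796 TPM in female WT and 2942, 2867 and 2858 TPM in female *Dek* cKO libraries, higher without overlap. Summed markers of oligodendrocytes were lowest in male WT replicate 2 and in male cKO replicates 2 and 3. Those of CA1 were lower in male *Dek* cKO than in male WT libraries, without overlap. None of the markers in these lists was listed at 0 in all libraries, and their part in the ribosomal protein levels was not tested.

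In level, the members spanned widely. The highest means were 1926 TPM for *Rplp1*, a protein of the stalk that recruits elongation factors, and 1698 TPM for *Rps29* of the small subunit head. *Rps15*, also of the head, followed with 1235 TPM, *Rps27* with 1158 TPM and *Rps21* with 1111 TPM. *Rplp1* was measured at 2065, 1856 and 1824 TPM in female WT and 1697, 1741 and 2235 TPM in female *Dek* cKO libraries, and 2048, 1807 and 1909 TPM in male WT and 1758, 2040.0 and 2135 TPM in male *Dek* cKO libraries, with overlap of all groups. The median of the members' mean levels was 359 TPM, against 9.60 TPM over all 18197 genes tested.

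At the other end stood 3 paralogs known from other tissues. *Rpl3l*, a form of striated muscle, had a mean of 0.317 TPM and *Rpl39l*, a form of the testis, 0.186 TPM. *Rpl10l*, a retrogene also used in the testis, was at 5.06 TPM in female WT replicate 1 and was listed at 0 in the other 11 libraries. *Rps12*, a core protein of the small subunit, was also low (13.3 TPM).

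Many members share sequence with other genes. Processed pseudogenes, copies of mRNAs put back into the genome, are common for ribosomal protein genes, and reads that fit several of them are divided by the quantification. *Rpl12* had a mean of 27.0 TPM, while its pseudogene *Gm10275* had 455 TPM. For *Rpl5* (47.2 TPM) the pseudogene *Gm15500* had 350.3 TPM, and for *Rpl27a* (198 TPM) the pseudogene *Gm7536* had 616 TPM. From which copy these reads came cannot be told apart. Female WT replicate 1 stood apart in its pseudogenes. Of 199 pseudogenes that share sequence with members, 13 were at 5 TPM or more and over 3 times every other library in that library, a rule set after the values were seen, and 0 were so in any other. Among them were *Gm6136* (37.9 TPM, at most 2.70 TPM elsewhere), a copy of *Rpl6*, and *Rpl19-ps1* (33.8 TPM, at most 0.449 TPM elsewhere). The 199 summed to 2741 TPM there and to 2074 to 2634 TPM in the others. *Rps12* stayed low when copies that hold at least 20% of a member's words were added, at 16.4 TPM.

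Among the members that varied most over the 12 libraries, of those with a mean of at least 1 TPM, were *Rps12* (SD of log2 values 0.49), *Rpl22l1* (0.22), *Rpl10* (0.21) and *Rpl22* (0.19). *Rps12* was at 13.0, 10.2 and 20.3 TPM in female WT and 15.3, 18.7 and 5.77 TPM in female *Dek* cKO libraries, and at 11.3, 9.75 and 13.5 TPM in male WT and 13.8, 17.1 and 11.3 TPM in male *Dek* cKO libraries. Its highest and lowest values fell in the female groups, which overlapped. *Rpl10*, an X-linked protein near the peptidyl transferase centre, was at 418, 305 and 289 TPM in female WT and 355, 375 and 295 TPM in female *Dek* cKO libraries, and 329, 317 and 367 TPM in male WT and 290.4, 444 and 374 TPM in male *Dek* cKO libraries. Of its 31-base words, 75.8% also occur in other genes. With copies added, *Rpl10-ps3* among them, *Rpl10* was at 607, 556 and 537 TPM in female WT and 546, 557 and 499 TPM in female *Dek* cKO libraries, and 606, 597 and 604 TPM in male WT and 542, 632 and 629.5 TPM in male *Dek* cKO libraries. The SD of its log2 values was then 0.11, while that of *Rps12* was 0.44 and those of *Rpl22l1* and *Rpl22* 0.22 and 0.19.

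Setting the 6 *Dek* cKO mice against the 6 WT mice asks what loss of *Dek* does to these mRNAs. None of the 82 members passed the test (limma, adjusted p under 0.05 and fold change over 1.2), while 27 of 18197 genes (0.148%) did. At an unadjusted p under 0.05 stood 3 members, all higher in *Dek* cKO, against 6.64% of all genes. This count was 6 without female cKO replicate 2 (6.14% of all genes), 5 with the library labelled male cKO replicate 1 left out, and 2 without female WT replicate 2 or male cKO replicate 3. For the counts of 5 and 2 no share of all genes is given. The members' median log2 fold change was 0.03 and that of all genes 0.02, with estimates above 0 for 64 of 82 members (78.0%) and 55.8% of all genes. Without male cKO replicate 3, 43 members had an estimate above 0 and the median was 0.01, and without male cKO replicate 2 these were 46 and 0.01. The median was 0.02 without female WT replicate 2 or 3, and 0.05 without female cKO replicate 2, male WT replicate 1 or the pair against their sex label. It was 0.00 with 44 above 0 when the female WT group was left out, and 0.02 with 49 after correction of each library for the length and GC content of transcripts. The lowest estimate among members of at least 1 TPM was -0.07, that of *Rpl37a*.

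*Rpl12*, which sits at the base of the stalk of the large subunit, had the smallest p. It was at 25.6, 29.0 and 23.9 TPM in female WT and 23.5, 21.9 and 25.4 TPM in male WT libraries, and at 26.0, 30.4 and 28.8 TPM in female and 27.3, 29.8 and 32.9 TPM in male *Dek* cKO libraries. All 6 *Dek* cKO values lay above the WT median, but the genotypes overlapped and the difference did not pass (log2 fold change 0.23, SE 0.07, adjusted p = 0.486). With its copies added, *Rpl12* was at 488, 449 and 437 TPM in female WT and 524, 476 and 502 TPM in male WT, and at 471, 456 and 428 TPM in female and 444, 537 and 604 TPM in male *Dek* cKO libraries. The estimate then was 0.02 (adjusted p = 0.989), a change of the setting made after seeing the data.

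*Rpl36al*, an intronless paralog of the X-linked *Rpl36a*, was at 186, 193 and 177 TPM in female WT and 187, 194 and 186 TPM in male WT libraries, against 191, 199.9 and 218 TPM in female and 202, 208 and 252 TPM in male *Dek* cKO libraries. Here too all 6 *Dek* cKO values lay above the WT median, and the groups overlapped (log2 fold change 0.17, SE 0.06, adjusted p = 0.566). No listed copy holds 20% of its words, so adding copies left its values as they were. *Rpl27* was at a log2 fold change of 0.13 (adjusted p = 0.746) and *Rps25*, of the small subunit head, at 0.18 (adjusted p = 0.790). With copies added, the estimate of *Rpl27* was 0.03, and without male cKO replicate 3 that of *Rps25* was 0.11.

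In females, the comparison of *Dek* cKO with WT gave no member past the test, where 3 of 18197 genes (0.0165%) passed, and no member had an unadjusted p under 0.05, against 5.79% of all genes (limma). Genotype and the prefix of the library names change together in females and cannot be told apart. The members' median was -0.01 and that of all genes 0.01, and 37 of 82 members had an estimate above 0. Without the pair of libraries against their sex label, the median was -0.02, 2 members had an unadjusted p under 0.05 (8.56% of all genes), both lower in *Dek* cKO, and 25 had an estimate above 0. Those 2 were *Rpl21* (log2 fold change -0.12, SE 0.04, adjusted p = 0.468), which was named after its values were seen, and *Rpl37a*. The sign of the median turned with single libraries. It was 0.04 without female WT replicate 1, with 52 of 82 estimates above 0, 0.01 without female cKO replicate 2, with 46, and 0.00 without female cKO replicate 1, with 43. After the length and GC correction it was 0.04, with 53 above 0. At an unadjusted p under 0.05 stood 3 members without female WT replicate 2, as many without female WT replicate 3 or female cKO replicate 1, 2 without male cKO replicate 3, and 1 without female cKO replicate 2 or the library labelled female cKO replicate 3. The share of all genes in these settings is not given, so these counts are a description only.

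*Rpl37a*, of the large subunit, was at 557, 438 and 440.0 TPM in female WT and 390.5, 412 and 449 TPM in female *Dek* cKO libraries, and the groups overlapped (log2 fold change -0.19, SE 0.09, adjusted p = 0.859). Female WT replicate 1 was the highest, and without it the estimate was -0.08. *Rplp2*, a stalk protein, was at 307, 309 and 307 TPM in female WT and 306, 295 and 236 TPM in female *Dek* cKO libraries. Its groups did not overlap, but the lowest value came from the library labelled female cKO replicate 3, without which the estimate moved from -0.15 to -0.03.

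*Rps23*, a protein of the decoding site, was at 215, 212 and 205 TPM in female WT and 213, 198 and 161 TPM in female *Dek* cKO libraries, again with the lowest value in the library labelled female cKO replicate 3, without which -0.15 moved to -0.04. Without female cKO replicate 1 it was -0.24. *Rpl27* and *Rpl5* were the members with small p that were higher in female *Dek* cKO mice, at log2 fold changes of 0.18 and 0.15 (adjusted p = 0.856 and 0.874). With copies added these were 0.01 and -0.01, so the direction of *Rpl5* turned. Without the library labelled female cKO replicate 3 the estimate of *Rpl27* was 0.10, without female cKO replicate 1 it was 0.28, and that of *Rpl5* was 0.09 without female WT replicate 1. *Rpl5* binds 5S rRNA together with *Rpl11*, and 86.4% of its words also occur in other genes.

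In males, the comparison of *Dek* cKO with WT gave 5 members with an unadjusted p under 0.05 (5.45% over all genes), all higher in *Dek* cKO, and again 0 of 82 past the limma test, where 3 of 18197 genes (0.0165%) passed. The median log2 fold change was 0.06 (all genes 0.02), and 74 of 82 members had an estimate above 0, against 54.7% of all genes. After the length and GC correction the median was -0.01, with 34 estimates above 0 (42.0% of all genes) and 1 member at that p (6.93%). The counts also moved with single libraries. Without male cKO replicate 3 the median was 0.02, with 52 of 82 estimates above 0 and 1 unadjusted p under 0.05 (4.13% of all genes). It was 0.03 with 56 above 0 without male cKO replicate 2, and without male WT replicate 1 it was 0.09 with 75. Without male cKO replicate 2, male WT replicate 2 or male WT replicate 3, 3 members were at that p. No share of all genes is given for those settings. Without the pair of libraries against their sex label the median was 0.13, with 80 of 82 estimates above 0 and 29 members at an unadjusted p under 0.05, where all genes had a median of 0.01, 51.5% above 0 and 8.86% at that p. When only male cKO replicate 1 of that pair was left out, 17 members were at that p (7.69% of all genes), with the same median and 80 above 0. None of them passed in either setting, and without the pair the smallest adjusted p of a member was 0.343. In both settings the male *Dek* cKO group held only replicates 2 and 3. Members varied together over the libraries, so these counts are not counts of independent results.

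*Rpl12* was again first, with 23.5, 21.9 and 25.4 TPM in male WT and 27.3, 29.8 and 32.9 TPM in male *Dek* cKO libraries (log2 fold change 0.35, SE 0.10, adjusted p = 0.828). Its groups did not overlap, but with copies added the estimate was 0.07 (adjusted p = 0.949). *Rpl13a*, which also binds inflammatory mRNAs when released from the ribosome, was at 149, 148 and 149 TPM in male WT and 158, 187 and 192 TPM in male *Dek* cKO libraries. Every *Dek* cKO value lay above every WT value, the lowest being that of the library labelled male cKO replicate 1 (log2 fold change 0.26, SE 0.10, adjusted p = 0.880). Without the pair against their sex label the estimate of *Rpl13a* was 0.35 (SE 0.07, adjusted p = 0.343), and copies added hardly changed it (0.26).

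*Rps27l*, a paralog of *Rps27* that p53 can induce, was at 50.1, 43.3 and 44.2 TPM in male WT and 56.9, 49.3 and 62.9 TPM in male *Dek* cKO libraries (log2 fold change 0.29, SE 0.11, adjusted p = 0.880). The groups overlapped, as male cKO replicate 2 lay below male WT replicate 1. *Rpl36al* was at 187, 194 and 186 TPM in male WT and 202, 208 and 252 TPM in male *Dek* cKO libraries, with no overlap (log2 fold change 0.21, SE 0.08, adjusted p = 0.880). The estimate was 0.11 without male cKO replicate 3, the highest.

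Whether the effect of genotype differed between the sexes was tested as an interaction. It uses the female WT group, so the prefix of the library names cannot be told apart from it here either. No member passed, nor did any of the 18197 genes (0%), and 1 member had an unadjusted p under 0.05, against 4.23% of all genes (limma). The median was 0.07 (all genes 0.01), with 62 of 82 estimates above 0. After the length and GC correction the direction turned, with a median of -0.03 and 28 of 82 above 0, against -0.03 and 44.8% over all genes. The median was 0.03 without female WT replicate 1 or male cKO replicate 3, 0.04 without male cKO replicate 2, and 0.05 without female cKO replicate 2. Leaving out the library labelled male cKO replicate 1 raised it to 0.14, with 8 members at an unadjusted p under 0.05 (5.74% of all genes). That count was 3 without the library labelled female cKO replicate 3, 2 without female cKO replicate 1, female cKO replicate 2 or male WT replicate 1, and 0 without female WT replicate 1, male WT replicate 2 or male cKO replicate 3. The share of all genes is not given for these further settings, so the counts are a description only. The member with all libraries was *Rpl13a* (log2 fold change 0.31, SE 0.14, adjusted p = 0.966). *Rps23*, *Rps27l*, *Rps26* and *Rpl37a* came next, at 0.26, 0.30, 0.25 and 0.24, each with an adjusted p of 0.966. Without the library labelled female cKO replicate 3 the estimate of *Rps23* was 0.14, and without female WT replicate 1 that of *Rpl37a* was 0.12. *Rps26*, which lies at the mRNA exit, was at 278, 261 and 264 TPM in female WT and 242, 252 and 277 TPM in female *Dek* cKO libraries, and 302, 264 and 262 TPM in male WT and 274, 332 and 341 TPM in male *Dek* cKO libraries. Leaving out the pair against their sex label takes a library from each *Dek* cKO group, and the members vary together. Without that pair, the median of the interaction was 0.16, 19 members had an unadjusted p under 0.05, all positive, against 8.80% of all genes, and *Rpl13a* reached 0.49 (SE 0.09, adjusted p = 0.166), still short of the threshold. *Rps26* was then at 0.40, and with 1 library left out it ran from 0.19 without male cKO replicate 3 to 0.35 when the library labelled male cKO replicate 1 was left out. After the length and GC correction the estimates of *Rpl13a*, *Rps23*, *Rps27l*, *Rps26* and *Rpl37a* were 0.21, 0.12, 0.20, 0.12 and 0.10.

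Male and female WT mice were compared to see whether sex alone moves these genes. No member and no gene passed (0%), 2 members had an unadjusted p under 0.05, both higher in males, against 3.63% of all genes (limma), and 70 of 82 estimates were above 0, with a median of 0.06 against -0.01 over all genes. Without male WT replicate 1 the median was 0.03, with 60 of 82 above 0, and without female WT replicate 3 it was 0.04, with 58. The length and GC correction gave 0.14, with 77 above 0 and 8 members at that p (4.24% of all genes). Their count was 5 without the library labelled male cKO replicate 1, which enters through the shared spread, and 7 without the pair against their sex label, where 3.94% and 4.60% of all genes were at that p. It was 1 without female WT replicate 3, male WT replicate 1 or male WT replicate 2, 3 without female WT replicate 1, female WT replicate 2, male WT replicate 3 or male cKO replicate 3, and 0 with copies added. These last counts stand without a share of all genes and are a description only. The 2 members with all libraries were *Rpl5* (log2 fold change 0.21, SE 0.08, adjusted p = 1.00) and *Rpl7* (log2 fold change 0.15, SE 0.06, adjusted p = 1.00). With copies added, *Rpl5* was at 421, 383 and 354 TPM in female WT and 418, 390.2 and 413 TPM in male WT libraries, with overlap and an estimate of 0.08. *Rpl7* was at 279, 279 and 264 TPM in female WT and 319, 293 and 301 TPM in male WT libraries, without overlap. *Rps6*, the substrate of S6 kinases, was at 394, 405 and 386 TPM in female and 443, 420.4 and 419 TPM in male WT libraries, also without overlap (log2 fold change 0.11, SE 0.06, adjusted p = 1.00). With copies added it was at 446, 407 and 388 and 444, 423 and 420.4 TPM, the highest in female WT replicate 1, where the pseudogene *Gm16409* had 36.1 TPM, so that the groups overlapped and the estimate was 0.06. *Rps18* (0.14) and *Rpl3* (0.10) completed the 5 members with the smallest p, each at an adjusted p of 1. Over the other settings the estimates were 0.11 to 0.24 for *Rps18*, 0.08 to 0.16 for *Rpl3* and 0.06 to 0.20 for *Rps6*. All 4 blood markers were lower in male than in female WT mice at an unadjusted p under 0.05 (limma, 3.63% of all genes). Their sums did not overlap between these groups, and their part in the ribosomal protein levels was not tested. Sex and the prefix of the library names change together in this comparison and cannot be told apart.

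By position in the ribosome, no group of proteins held a called member in any comparison, and the medians of the groups' log2 fold changes moved with single libraries. The 3 stalk genes *Rplp0*, *Rplp1* and *Rplp2*, which recruit elongation factors, had a median of 0.04 in males, and the peptide tunnel exit (*Rpl19*, *Rpl23a*, *Rpl26*, *Rpl31*, *Rpl35*) 0.06. Without male cKO replicate 3 both turned, to -0.01 and -0.00, and over the settings that leave out 1 library they were highest, at 0.12 and 0.13, when the library labelled male cKO replicate 1 was left out. The tunnel wall (*Rpl4*, *Rpl17*, *Rpl39*) had 0.06 and the proteins near the peptidyl transferase centre (*Rpl3*, *Rpl8*, *Rpl10*) 0.05, which turned to -0.01 and -0.03 without male cKO replicate 2 and reached 0.14 and 0.10 with the library labelled male cKO replicate 1 left out. In females the medians of the stalk, the tunnel wall and its exit were -0.03, -0.01 and -0.01. They turned to 0.03, 0.05 and 0.03 without female WT replicate 1 and were -0.07, -0.02 and -0.06 without the library labelled female cKO replicate 3. With 1 library left out, the tunnel wall was lowest without female WT replicate 3, at -0.04. The stalk also turned without female cKO replicate 1 (0.05) or 2 (0.03), and the tunnel exit without female cKO replicate 2 (0.07). Near the peptidyl transferase centre the female median was -0.05, with -0.07 to -0.003 over the other settings. The partners of 5S rRNA, *Rpl5* and *Rpl11*, had medians of 0.04 in males and 0.09 in females, with 0.01 in males without male cKO replicate 2, 0.09 with the library labelled male cKO replicate 1 left out, and 0.04 in females without the library labelled female cKO replicate 3. With copies added the female median was -0.00. After the length and GC correction the male medians were -0.04 for the stalk, -0.02 and -0.00 for the tunnel exit and wall, -0.04 near the peptidyl transferase centre and -0.02 for the partners of 5S rRNA.

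In the small subunit, the mRNA entry (*Rps2*, *Rps3*, *Rps9*) had a median of 0.10 in males, the mRNA exit (*Rpsa*, *Rps14*, *Rps26*, *Rps28*) 0.15 and the 13 proteins of the head 0.05. Over the settings that leave out 1 library these were lowest without male cKO replicate 3, at 0.04, 0.08 and 0.03, and highest without the library labelled male cKO replicate 1, at 0.13, 0.23 and 0.12. The length and GC correction gave 0.01, 0.07 and -0.03. In females the exit was at 0.04, at -0.06 without the library labelled female cKO replicate 3, at 0.11 without female cKO replicate 2 and at -0.01 with copies added. The female median of the entry was -0.05, with -0.07 to -0.02 over the other settings. That of the head was -0.01, with -0.08 to 0.04. For 11 genes whose human counterparts are mutated in Diamond-Blackfan anaemia the median was 0.06 in males, 0.03 without male cKO replicate 2, 0.13 when the library labelled male cKO replicate 1 was left out, and -0.02 after the length and GC correction. For the 4 X-linked members *Rpl10*, *Rpl36a*, *Rpl39* and *Rps4x* these were 0.11, 0.05, 0.22 and 0.05. In females the anaemia genes had a median of -0.01, with -0.04 to 0.05 over the other settings. The X-linked members had 0.02 in females, with -0.03 to 0.10. In all these groups, and for *Rps27a*, made as a fusion with ubiquitin, the limma test called 0 members, and only *Rpl5* in the comparison of WT sexes had an unadjusted p under 0.05 with all libraries.

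Paralog pairs were compared as the level of the rarer form in percent of the main form. *Rpl22l1*, whose mRNA the RNA-binding protein *Rpl22* can repress, stood at 17.6, 32.4 and 25.9% of *Rpl22* in female WT and 23.7, 28.4 and 17.5% in female *Dek* cKO libraries, and 27.9, 25.1 and 24.7% in male WT and 29.7, 26.9 and 24.7% in male *Dek* cKO libraries. The female groups spread widely and all groups overlapped. *Rpl36al* stood at 49.6 to 62.8% of *Rpl36a*, and *Rpl7l1*, a factor related to *Rpl7* that acts in ribosome assembly, at 5.86 to 7.93% of *Rpl7*.

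*Rps27l* stood at 3.69, 3.71 and 3.79% of *Rps27* in male WT and 5.09, 3.70 and 5.25% in male *Dek* cKO libraries. Male cKO replicate 2 lay within the WT range and the others above it. In females the percentages were 3.87, 3.63 and 4.49% in WT and 3.78, 4.57 and 4.30% in *Dek* cKO libraries, with overlap. *Rpl3l* reached at most 0.112% of *Rpl3* and *Rpl39l* at most 0.177% of *Rpl39*, and *Rpl10l* reached 1.21% of *Rpl10* in female WT replicate 1 alone. *Rps4l*, the paralog of *Rps4x*, was not analysed here.

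Pairs that share only a number in their names, such as *Rpl13* and *Rpl13a*, encode unrelated proteins, apart from the related stalk proteins *Rplp1* and *Rplp2*, and their ratios give a scale for how much ratios vary. *Rpl13a* stood at 23.1, 23.0 and 23.5% of *Rpl13* in male WT and 25.8, 27.1 and 28.1% in male *Dek* cKO libraries, with no overlap. In females it stood at 24.8, 28.1 and 25.2% in WT and 24.9, 23.3 and 28.7% in *Dek* cKO libraries, with overlap. Across the 12 libraries *Rpl7a* ranged from 98.2 to 140.0% of *Rpl7* and *Rpl10a* from 48.1 to 102% of *Rpl10*, the lowest in female WT replicate 1. The highest value of *Rpl7a* and of *Rpl10a* came from the library labelled female cKO replicate 3.

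That library also gave the lowest ratio of *Rpl23a* to *Rpl23* (199% against 252 to 273% elsewhere), of *Rpl35a* to *Rpl35* (210.0% against 252 to 290.3%), of *Rps15a* to *Rps15* (21.7%) and of *Rplp2* to *Rplp1* (10.6%). It gave the highest of *Rps27a* to *Rps27* (47.8%) and of *Rps3a1* to *Rps3* (281%). *Rpl27a* stood at 73.2 to 106% of *Rpl27*, and *Rpl37a* at 155 to 229% of *Rpl37*, both highest in female WT replicate 1.

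The 37 members not named by their level, spread, p or paralog were 20 large and 17 small subunit genes. Their means ran from 66.8 TPM for *Rpl31* to 952 TPM for *Rpl38*, and the SD of their log2 values from 0.06 to 0.19. Their log2 fold changes lay between -0.07 and 0.13 in both sexes together, between -0.16 and 0.12 in females, between -0.04 and 0.21 in males and between -0.08 and 0.15 in the comparison of WT sexes. The largest of these, *Rpsa* in males, had an adjusted p of 0.881.

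Ribosomal proteins with other symbols had small estimates. For *Fau* the log2 fold changes were 0.09 in both sexes together, -0.00 in females and 0.19 in males, and for *Rack1* 0.04, -0.02 and 0.10, with 0 called by limma and 0 at an unadjusted p under 0.05. Of 9 genes for elongation factors and their kinase, 1 had an estimate above 0 in both sexes together (median -0.05), 1 in females (median -0.10) and 4 in males (median -0.00). Without the pair against their sex label these medians were -0.03, -0.07 and -0.03, and the male one was 0.04 without male WT replicate 2 and -0.08 after the length and GC correction. The smallest p there was that of *Eef2k*, the kinase that inhibits eEF2, at 32.4, 35.0 and 31.3 TPM in male WT and 27.2, 29.3 and 31.4 TPM in male *Dek* cKO libraries (log2 fold change -0.13, SE 0.05, adjusted p = 0.673 in both sexes together).

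Of 19 other mRNAs with a TOP motif, 0 passed and 8 had an estimate above 0 in both sexes together (median -0.02), 6 in females (median -0.06) and 13 in males (median 0.06). Without the pair against their sex label the medians were 0.01, -0.04 and 0.12. The male one was 0.00 without male cKO replicate 3 and -0.01 after the length and GC correction, and the female one ran from -0.09 without female WT replicate 3 to -0.02 without female WT replicate 1. Among them *Nap1l1*, a histone chaperone, had the smallest p, at 37.7, 32.3 and 32.7 TPM in male WT and 46.1, 45.2 and 44.6 TPM in male *Dek* cKO libraries, without overlap (log2 fold change 0.41, SE 0.10, adjusted p = 0.564). It was the only one at an unadjusted p under 0.05 in males (5.45% of all genes), the library labelled male cKO replicate 1 included among the high values.

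Of the 15 regulators around mTOR, LARP1 and Myc, 0 were called by limma in any comparison. In both sexes together 0 had an unadjusted p under 0.05, against 6.64% of all genes. *Larp1*, which binds the TOP motif, was at 3.57, 3.96 and 3.35 TPM in male WT and 3.21, 1.91 and 2.40 TPM in male *Dek* cKO libraries, a lower level without overlap that did not pass (log2 fold change -0.54, SE 0.23, adjusted p = 0.880). In females *Rps6kb2*, an S6 kinase, was the one regulator at an unadjusted p under 0.05, against 5.79% of all genes (log2 fold change 0.24, SE 0.10, adjusted p = 0.852). Of the 7 chaperones and carriers of ribosomal proteins, 0 were called and 0 had an unadjusted p under 0.05 (6.64% of all genes) in both sexes together.

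Other large complexes are also built from short, abundant mRNAs. The 77 mitochondrial ribosomal protein genes had medians of 0.03 in both sexes together, 0.01 in females and 0.05 in males, and 91 tested genes of respiratory chain subunits had 0.02, 0.04 and 0.01. Without male cKO replicate 3 the medians of the first list were -0.01 in both sexes together and -0.01 in males, and those of the second -0.00 and -0.02. Leaving out the pair against their sex label gave 0.03, 0.01 and 0.07 for the first and 0.02, 0.00 and 0.04 for the second. The length and GC correction gave -0.00, 0.01 and -0.03, and -0.00, 0.06 and -0.05. Of these 0 passed, with 4 and 5 at an unadjusted p under 0.05 in both sexes together, against 6.64% of all genes (limma). In male cKO replicate 3 the medians of both lists were high too, 0.14 and 0.11 against 0.16 over all 82 ribosomal protein genes, while in male cKO replicate 2 they were 0.04 and 0.04 against 0.12. The difference between the lists was not tested.

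In sequence, the members share short transcripts. Their median transcript length was 717 bases, against 1695 over all genes tested, and their median GC content 51.6% against 50.6%. Large and small subunit genes were alike, with 704 and 724 bases. After correction of each library for length and GC content, which turned the sign of the members' medians to -0.01 in males and 0.04 in females, the medians of all genes were -0.03 and -0.00.

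On the genome (GRCm38) 14 members lie on chromosome 7, 8 on chromosome 17, 7 each on chromosomes 9 and 11, and 4 on X. *Rps2* and *Rpl3l* are 5.89 kb apart on chromosome 17, and *Rps29* and *Rpl36al* 23.5 kb apart on chromosome 12, and the levels within each of these pairs differ widely. *Rps25* on chromosome 9 shares 30.9% of its words with the gene *Trappc4*.

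Promoters were taken from RefSeq (GRCm38.p6) as 300 bases, 250 before the start and 50 from it on. They were at hand for 62 members with 74 windows, and 32851 windows of 27025 genes served as background. A run of at least 5 pyrimidines that reached within 5 bases of the start was found in 37 member windows (50.0%), against 31.4% of all windows, and C was the first base in 29.7% against 16.3%. The letters CGGAAG, which ETS factors read, occurred on either strand in 59.5% of member windows against 16.9%. ATGGCG, part of the YY1 motif, occurred in 31.1% against 8.93%, CTTTCC, a pyrimidine stretch that can lie in the run itself, in 48.6% against 26.6%, and TATAAA in 9.46% against 13.6%. The median GC content was 58.5% in member windows and 52.7% in all windows, and the shares were not corrected for it. These letters were chosen after the data were seen, and a match is a description, not a binding site.

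The 30 bases around the start are shown for some of the members with the smallest p in the comparisons and for *Rpl15*, picked as an example of a long run. Other members of small p with a window, such as *Rpl5* and *Rpl37a*, are not shown. The first 15 bases precede the start and capitals mark the longest pyrimidine run that comes within 5 bases of it, where that has at least 5 bases, as far as it lies in the bases shown. Other runs are not marked. For *Rps27l* a second window, at chr9:66946398-66946427, has a run of only 4 bases there and is not shown. The stretches are chr2:32961697-32961726 on the plus strand for *Rpl12*, chr7:45128731-45128760 on the minus strand for *Rpl13a*, chr11:101442230-101442259 on the plus strand for *Rpl27* and chr9:66946071-66946100 on the plus strand for *Rps27l*. *Rplp2* is at chr7:141447636-141447665 on the plus strand and *Rpl15* at chr14:18270972-18271001 on the minus strand. *Rpl36al* is at chr12:69184053-69184082 on the minus strand and *Rps25* at chr9:44407699-44407728 on the plus strand, and neither has a run of at least 5 bases within that distance.
Rpl12: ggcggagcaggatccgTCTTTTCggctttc
Rpl13a: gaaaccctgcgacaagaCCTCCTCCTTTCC
Rpl27: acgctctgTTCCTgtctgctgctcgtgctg
Rps27l: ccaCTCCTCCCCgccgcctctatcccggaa
Rplp2: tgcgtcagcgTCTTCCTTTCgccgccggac
Rpl15: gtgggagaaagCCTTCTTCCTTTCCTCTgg
Rpl36al: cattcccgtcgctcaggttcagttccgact
Rps25: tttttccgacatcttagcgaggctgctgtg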

How the data were processed

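RNA of 12 hippocampi was sequenced from poly-A selected, stranded, paired-end libraries. The authors deposited 1 table of TPM, which are scaled per library and divided by transcript length. Their processing notes name kallisto and mm10, and the study's methods name STAR and Salmon, and which of them wrote the table is not stated. Members were found through GENCODE M21, and copies through shared words of 31 bases. Genes averaging 0.1 TPM or more, 18197 in all, were analysed as log2(TPM + 0.1), which understates the change of low genes. Limma (3.58.1, R 4.3.3; trended prior variance, two-sided) was fitted on all these genes, with 2 groups of 6 libraries for both sexes together and 1 fit of 4 groups of 3 for the other contrasts, and Benjamini-Hochberg adjustment over all genes. Calls needed an adjusted p under 0.05 together with a fold change over 1.2.

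Named members were those called, the 5 with the smallest p per comparison, the 5 highest and 5 lowest in mean, the 5 with the largest SD, and the paralog pairs, and in the other lists those called or, failing these, those of smallest p. Some of these genes are not reported here. Members and lists were chosen with earlier results of these data known. The fit was tested on simulated data, and the limit for accepting that test was changed after its first result, while the fit was not. The new limit was required only of the fit of both sexes together, and the comparison within females did not reach its share of recovered genes. Alternatives varied the TPM added, filter, scaling, trend, covariate, block, GC and length correction and libraries. Summing copies, and the share without the pair of libraries against their sex label, were added after seeing the data. Python 3.11.15, pandas 2.3.3, numpy 2.4.6 and matplotlib 3.10.9 made tables and figures.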

Additional observations from a re-analysis of the deposited data

Results flagged for a closer look

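In groups of 6 libraries of a genotype, 9 of 98 groups (9.18%) over 49 results held a library far from the others. Many of these results were picked for spread or small p, and members vary together. This share therefore cannot be set against a chance rate and is a description only. In WT libraries, female WT replicate 1 was far below the others for *Rpl10a* (201 TPM, nearest 235 TPM) and far above them for *Rpl37a* (557 TPM, nearest 482 TPM) and *Rpl10l* (5.06 TPM, all others listed at 0). Male WT replicate 1 was far above the others for *Rpl37* (268 TPM, nearest 243 TPM), *Rps25* (25.1 TPM, nearest 20.9 TPM) and *Rps3* (244 TPM, nearest 222 TPM). *Rps12* was at 20.3 TPM in female WT replicate 3, where the nearest library had 13.5 TPM. In the *Dek* cKO groups the lowest *Rplp2* was that of the library labelled female cKO replicate 3 (236 TPM, nearest 295 TPM), and its members spread most (SD of differences 0.226, nearest 0.115). With copies added, *Rpl10a* in female WT replicate 1 was at 271 TPM, the highest of the WT libraries (239 to 254 TPM in the others), as the pseudogene *Rpl10a-ps1* had 69.5 TPM there. *Rpl37* with its copy was at 283 TPM in male WT replicate 1, within the other WT libraries (255 to 307 TPM). No member had an interaction past the threshold.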

How the results depend on the processing

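In each of the 5 comparisons limma called 0 members under every other setting run, with 0 to 29 members at an unadjusted p under 0.05. Medians of the members' log2 fold changes were less steady. The interaction median of 0.07 was -0.0347 after GC and length correction, the same -0.0347 with the replicate block added to that correction, and 0.16 without the pair of libraries against their sex label. The median between WT sexes went from 0.06 to 0.14 after GC and length correction, with 8 members in place of 2 at an unadjusted p under 0.05. In males that count went from 5 to 29 without the pair, to 17 without male cKO replicate 1 and to 1 without male cKO replicate 3. Each of these settings left out a male *Dek* cKO library, and the members vary together. *Rpl5* in females turned from 0.15 to -0.00891 with copies summed. The mean share of listed TPM was 4.03%, 5.22% without genes of the mitochondrial genome, 4.05% without the pair, and 3.99 to 4.06% with each library left out in turn. The cause of these shifts was not tested. Same-numbered WT and *Dek* cKO libraries of a sex correlated at -0.0385 to 0.0445, and those with different numbers at -0.0793 to 0.0421. A pairing by litter or batch cannot be told from these correlations. The replicate block called 0 members too. Over all genes the block called 3 in place of 27 in both sexes together and 1 in place of 3 in each sex, and without the pair 16, 11 in females and 7 in males were called. With TPM alone, depth is unknown, and no limit of detection can be given.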

Other observations

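Choroid plexus markers, led by *Ttr*, summed to 1637, 94.6 and 66.9 TPM in female WT and 44.9, 3404 and 1105 TPM in female *Dek* cKO libraries, and 1963, 580.2 and 3020.3 TPM in male WT and 4413, 64.0 and 1358 TPM in male *Dek* cKO libraries. Their part in the ribosomal protein levels was not tested.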
